A study of Mus musculus with 6 samples.

Results

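The vacuolar proton pump (V-ATPase), a set of lysosomal membrane proteins and the Ragulator-Rag-folliculin machinery were examined in mouse macrophages with and without progranulin (PGRN), a secreted glycoprotein that is also carried to lysosomes. The genes were taken from the deposited table by symbol and by name. All protein-coding rows whose symbol begins with Atp6v or Atp6ap were included, which gave 26 genes, and 21 further genes were taken by name, among them Lamp1, Lamp2, the 5 Lamtor genes, Flcn, Fnip1, Tfeb, Tfe3 and Mitf. The module therefore held 47 of the 54532 genes in the table. Of these, 37 had a mean of at least 1 FPKM (a fragment count divided by gene length and library size) over the 6 libraries and were tested.

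RNA sequencing was performed on 3 libraries of wild type (WT) macrophages, numbered 1, 2 and 3, and on 3 libraries of PGRN knockout (PGRN KO) macrophages, numbered 4, 5 and 6. The labels give the strain of both groups as C57BL/6J and describe the cells as peritoneal macrophages, cultured overnight in medium with 10% serum at 2000000 cells per well. Every library came from cells exposed for 6 hours to live Candida albicans, an opportunistic yeast, at 1 fungal cell per macrophage. No library of unexposed cells was analysed here, so that the comparison is between genotypes in the presence of the fungus. The study's methods name bone marrow-derived macrophages and another ratio of fungus to cells for this experiment, and the labels were followed. By the same methods the PGRN KO mice came from a commercial supplier and the WT mice from a university, so that genotype and source of the mice cannot be told apart. Neither source gives the number of mice behind a library, and the p-values below therefore measure the spread between these samples, which may be technical.

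The libraries held 15996786 to 17551619 counted fragments, and a tested gene of the module had a mean of 151 to 25889 fragments per library. Grn, the targeted gene, was at 323, 337 and 325 FPKM in WT and at 0.0166, 0 and 0.0167 FPKM in PGRN KO. Macrophage markers were abundant in all libraries, with 8 of 8 tested and a summed level of 10475 to 11294 FPKM in WT and 9343 to 13041 FPKM in PGRN KO. Among them Csf1r passed the test as lower and Mertk as higher in PGRN KO. Gata6, a factor of large peritoneal macrophages, was at 3.78 to 5.07 FPKM, whereas Timd4, a surface marker of the same cells, did not exceed 0.204 FPKM. Markers of B cells (summed level 4.96 to 6.26 FPKM in WT and 19.5 to 24.3 FPKM in PGRN KO) and mast cells (3.01 to 3.66 and 10.6 to 14.6 FPKM) were low. Of 8 markers in each list 3 of B cells and 2 of mast cells passed the filter on low values, and all of these were called, as higher in PGRN KO. Cd79a, Cd79b and Cma1 among them would not have reached the filter by the mean of their WT libraries. Their passing the filter and their calls as higher are therefore not independent. Of the neutrophil list, S100a8 was called as lower in PGRN KO, 2 of 8 markers being tested, with Ly6g and Elane at 0 in every library. The neutrophil list summed to 68.3 to 73.4 FPKM in WT and 42.6 to 43.9 FPKM in PGRN KO, and the large peritoneal macrophage list to 20.1 to 24.3 and 20.2 to 24.3 FPKM. T cell markers summed to 3.76 to 4.94 and 4.96 to 8.31 FPKM and stromal markers to 0.989 to 1.10 and 1.84 to 3.31 FPKM, dendritic cell and eosinophil markers were at or below 2.43 FPKM, and of these 4 lists only that of T cells held tested genes, 2 in number, neither of which was called. The part of such cells in the differences below was not tested.

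The V-ATPase is a rotary pump that acidifies lysosomes and phagosomes. Its V1 sector, in the cytosol, splits ATP, and its V0 sector, in the membrane, carries the protons. At the lysosomal surface the pump contacts Ragulator, a scaffold that anchors the Rag GTPases, which recruit the growth kinase complex mTORC1 when amino acids are plentiful. The MiT/TFE transcription factors are Tfeb, Tfe3, Mitf and Tfec. Folliculin (Flcn) with its partners Fnip1 and Fnip2 acts on RagC and RagD and thereby keeps Tfeb and Tfe3 in the cytosol. When freed, these factors enter the nucleus and bind the letters CACGTG, often within TCACGTGA, near the start of genes for lysosomal proteins. In macrophages the same system serves the killing and digestion of microbes.

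Since the module is known for this motif, stretches that hold it are shown for 7 of the 11 tested genes in which it was found. Those of Atp6v0b, Atp6v0e, Lamtor1 and Rragc are not shown. None of these genes was called in the comparison below, and Atp6v0e holds TCACGTGA. The stretches were taken from RefSeq windows of GRCm38.p6 that run from 250 bases before to 50 bases after the RefSeq start of each gene. Each line is written 5′ to 3′ on the strand of the gene, and capitals mark CACGTG or, where its flanking bases also match, TCACGTGA. Both motifs read the same on either strand, and TCACGTGA contains CACGTG. The RefSeq starts differ in part from the gene models of the deposited table: the Atp6v1a stretch lies inside that gene's model, outside its exons, and the Cln3 and Mcoln1 stretches lie in exons of their own genes. For Cln3 and Mcoln1 only the 30 bases around TCACGTGA are printed, and the window of each also holds 1 further CACGTG, 149 bases before the RefSeq start of Cln3 and 71 bases before that of Mcoln1.
Atp6v1a, chr16:44139369-44139406, minus strand: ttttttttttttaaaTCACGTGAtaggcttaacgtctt
Atp6v0d1, chr8:105566046-105566083, minus strand: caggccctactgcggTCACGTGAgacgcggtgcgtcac
Cln3, chr7:126583340-126583369, minus strand: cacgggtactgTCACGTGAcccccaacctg
Mcoln1, chr8:3500462-3500491, plus strand: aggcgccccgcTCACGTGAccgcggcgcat
Lamp1, chr8:13159085-13159166, plus strand: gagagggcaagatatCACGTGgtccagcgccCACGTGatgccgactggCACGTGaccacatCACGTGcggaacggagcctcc
Lamtor4, chr5:138255347-138255398, plus strand: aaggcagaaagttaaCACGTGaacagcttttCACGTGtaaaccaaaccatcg
Fnip1, chr11:54438089-54438124, plus strand: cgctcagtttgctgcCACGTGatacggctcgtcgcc
Lamp1, a major glycoprotein of the lysosomal membrane, held 4 copies of CACGTG within 82 bases, the closest of them 15 bases before the RefSeq start. Atp6v1a, the catalytic subunit of the pump, held a single TCACGTGA 132 bases before its RefSeq start. A window was found for 30 of the 37 tested genes, and 11 of these 30 (36.7%) held CACGTG, against 7.15% of all 32851 windows and 12.6% of the 6310 tested protein-coding genes with a window. TCACGTGA was present in 5 of 30 (16.7%), against 0.974% of all windows and 2.66% of the tested protein-coding genes. A match of letters is a description and not a binding site.

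To determine how the module as a whole differed between genotypes, log2(FPKM + 1) was compared with limma, with p-values adjusted by the Benjamini-Hochberg method over all 8882 tested genes and a threshold of 0.05. A fold change on this scale understates the change of genes with low FPKM. In the module 13 of 37 tested genes (35.1%) passed the threshold, against 24.2% of all tested genes. The module is abundant, with a median of 2722 fragments per library for its tested genes against 429 for all tested genes. Among genes with a mean of at least 5 FPKM, 35.3% of the module and 30.5% of all genes were called. A total of 4 genes were significantly higher in PGRN KO (10.4% of all tested genes were) and 9 were significantly lower (13.8%). The log2 fold changes of the 37 genes ran from -0.91 to 0.61 with a median of 0.02, whereas the median over all tested genes was -0.03. WT and PGRN KO values did not overlap for 26 of 37 genes (70.3%), against 48.8% of all tested genes. In these bulk samples, fewer cells of a type and less RNA per cell cannot be told apart.

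Calls in each direction came from different groups of the module, whose difference was not tested. All 9 genes that fell belonged to the V1 sector (Atp6v1a, Atp6v1b2, Atp6v1c1, Atp6v1d), the accessory proteins (Atp6ap2), Ragulator and the Rag GTPases (Lamtor3, Rragd) or the folliculin complex (Flcn, Fnip1). The 4 genes that rose were 3 lysosomal membrane genes (Scarb2, Cln3, Mcoln1) and 1 subunit of the V0 sector (Atp6v0d2). None of the 13 changed sign under any of the 18 alternative settings in which it was tested. The number of calls, however, depended on scaling and on single libraries. On a TPM scale, where every library has the same sum, 4 genes were higher and 4 lower, and 5 of the 13 calls were kept (21.6% of the module called, against 17.2% of all tested genes). With each library scaled to its own fragment total, 6 were higher and 3 lower, and 7 of the 13 calls were kept (24.3%, against 21.1% of all tested genes).

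**Figure D1:**
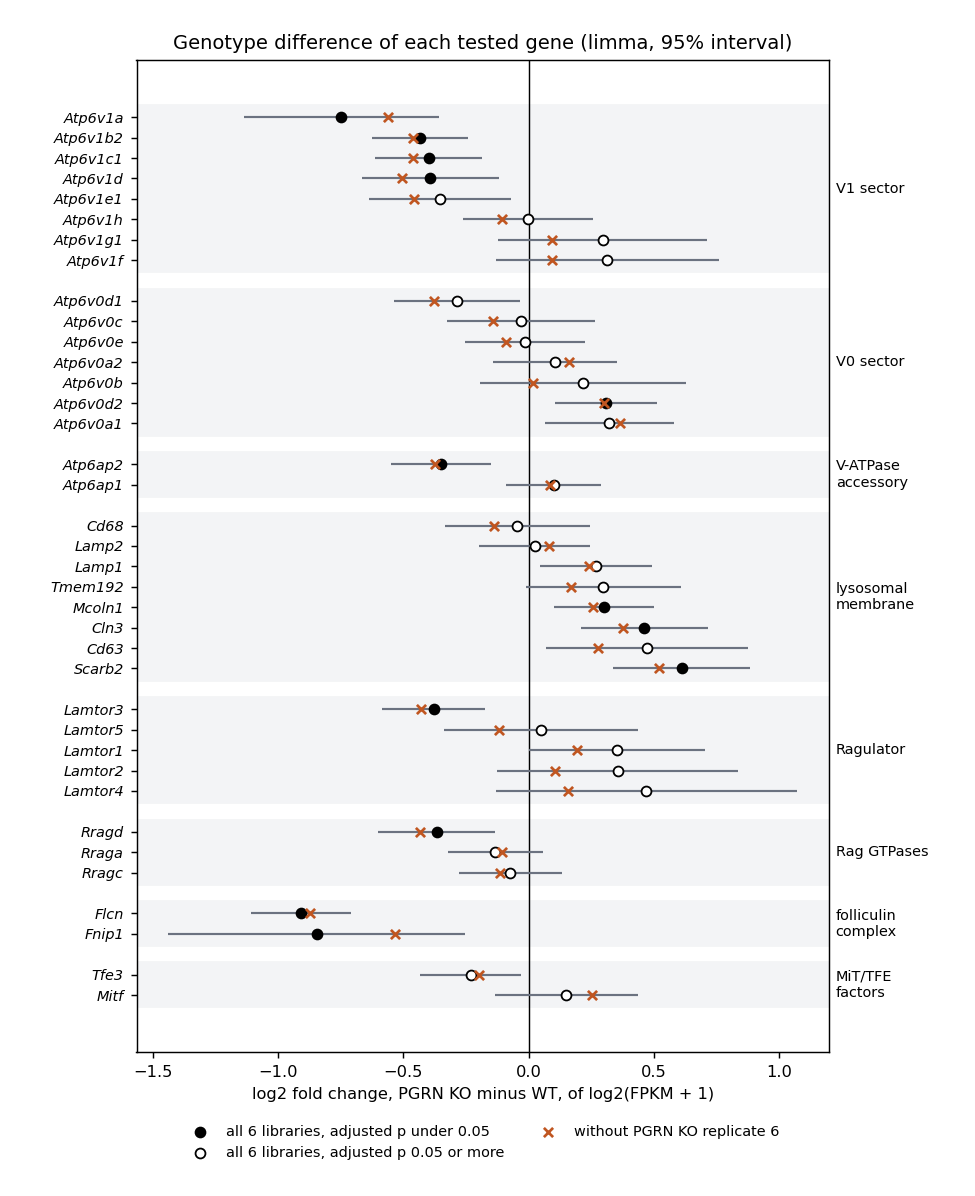
Log2 fold change (PGRN KO minus WT, of log2(FPKM + 1)) of the 37 tested genes by group, with the 95% interval from limma. Filled circles have an adjusted p under 0.05 (13 genes) and crosses give the value without PGRN KO replicate 6. Flcn at -0.91 and Scarb2 at 0.61 are the ends of the range, and the lysosomal membrane genes lie mostly to the right of 0.

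PGRN KO replicate 6 stood apart from PGRN KO replicates 4 and 5 in this module. It lay above both of them for 27 of the 37 genes and below both for 9. The difference between replicate 6 and the mean of the other PGRN KO libraries followed the length of the gene model, with a Spearman coefficient across genes of -0.61 over the 37 genes and -0.55 over all 8882 tested genes. Genes of the same libraries are not independent points, and these values are descriptions. Of the 9 tested members with models under 2000 bases, 8 were higher in replicate 6, by a median of 0.51 on the log2 scale. Among the 14 of 5000 bases or more, 7 were higher, with a median of -0.01. For the difference between replicates 4 and 5 and WT, the coefficient with length was -0.06 over the module.

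Results are therefore given with and without this library. Without replicate 6, 7 genes were higher and 12 lower (19 of 37, 51.4%, against 41.3% of all tested genes), and all 13 calls were kept. After each library was corrected for gene length, 5 were higher and 10 lower (40.5%, against 31.6% of all tested genes), and 11 of the 13 calls were kept. Leaving out other libraries lowered the number. Flcn alone was called without WT replicate 1 and without WT replicate 3, and Flcn and Scarb2 were called without WT replicate 2. Without PGRN KO replicate 4 there were 4 calls (Atp6v1a, Atp6v1b2, Flcn and Scarb2), and without replicate 5 there were 6, Cln3 and Fnip1 being added. In the same fits the share of all tested genes called was 8.03%, 9.63% and 9.94% without WT replicates 1, 2 and 3, and 15.6% and 18.0% without PGRN KO replicates 4 and 5.

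**Figure D2:**
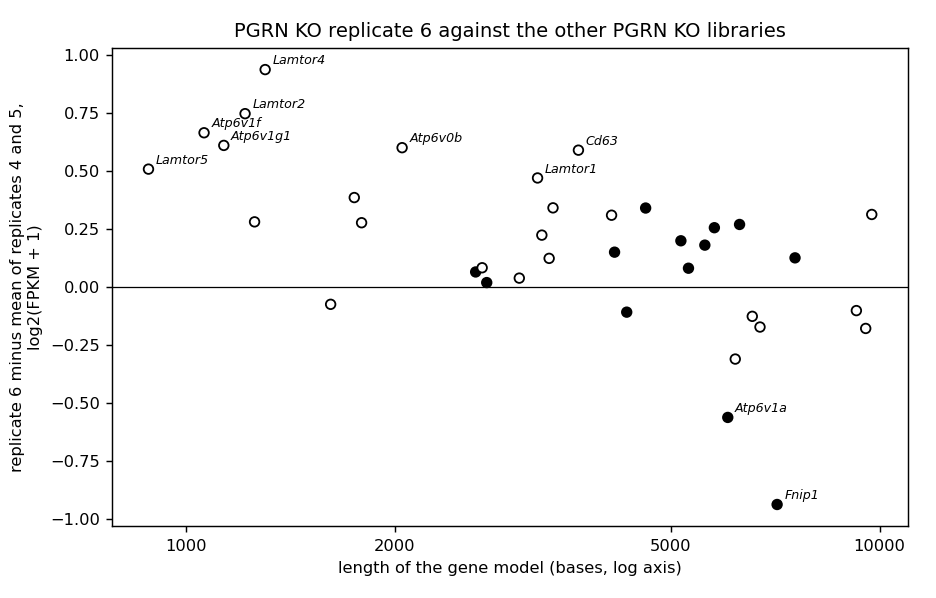
Difference between PGRN KO replicate 6 and the mean of replicates 4 and 5 (log2(FPKM + 1)) against the length of the gene model in bases (log axis) for the 37 tested genes. Filled points are the 13 genes past the threshold, and genes that differ by more than 0.45 are named. Short genes such as Lamtor4 and Atp6v1f lie above 0, whereas Atp6v1a and Fnip1, which are long, lie below it.

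The subunits of the V1 sector were examined first. Of its 14 genes, 8 were tested, 4 fell, none rose and the median log2 fold change was -0.37. Of all tested genes, 13.8% fell and 10.4% rose, and the small counts of this and the following groups are to be read beside these shares. Atp6v1a, the catalytic A subunit that binds and splits ATP, was at 183, 192 and 176 FPKM in WT and at 125, 124 and 83.9 FPKM in PGRN KO. Every PGRN KO library lay below every WT library, and replicate 6 was the lowest. By limma Atp6v1a fell by 0.75 on the log2 scale (SE 0.16, adjusted p = 0.0196), and the change was -0.56 with an adjusted p of 0.0011 without replicate 6. It was called in 12 of 18 alternative settings. The limma adjusted p was 0.0608 on the TPM scale and reached 0.081 without WT replicate 2.

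Atp6v1b2, a form of the B subunit, alternates with the A subunit in the ATP-splitting ring. It was at 79.1, 82.9 and 79.9 FPKM in WT and at 58.9, 57.6 and 61.7 FPKM in PGRN KO, so that the PGRN KO mean was 73.7% of the WT mean. The 3 libraries of each genotype were close to each other, and the groups were well apart. It fell by 0.44 on the log2 scale (SE 0.08, limma adjusted p = 0.0117) and was past the threshold in 15 of 18 alternative settings, more than any other V1 gene.

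Atp6v1c1 encodes the C subunit, which joins the V1 to the V0 sector and leaves when the pump comes apart. It was at 53.7, 51.7 and 51.9 FPKM in WT and at 36.8, 38.9 and 43.0 FPKM in PGRN KO (limma, change of -0.40 ± 0.09 in log2, adjusted p = 0.0217). Atp6v1d, part of the central stalk that turns inside the ring, was at 45.8, 47.6 and 47.4 FPKM in WT and at 33.4, 32.0 and 41.7 FPKM in PGRN KO (-0.39 ± 0.12, limma adjusted p = 0.0482). For both genes replicate 6 was the PGRN KO library closest to WT, without reaching it. Atp6v1c1 was called in 11 and Atp6v1d in 8 of 18 alternative settings, and in the fits that each left out 1 library the adjusted p of Atp6v1d ran from 0.0012 (without PGRN KO replicate 6) to 0.151 (without WT replicate 2).

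The other 4 tested V1 genes did not pass the threshold. Atp6v1e1, a subunit of the outer stalks, averaged 198 ± 13.04 FPKM in WT against 156 ± 20.1 FPKM in PGRN KO (SD over 3 libraries each), with no overlap between groups and a limma adjusted p of 0.0716, which was 0.0037 without replicate 6. Atp6v1h, which links the sectors, was at 29.5 ± 0.789 and 29.6 ± 3.96 FPKM. Atp6v1g1, of the outer stalks, and Atp6v1f, of the central stalk, have short models of 1135 and 1063 bases. Atp6v1g1 was at 140.2 and 145 FPKM in replicates 4 and 5 of PGRN KO, near the WT range of 126 to 138 FPKM, and at 218 FPKM in replicate 6. Atp6v1f was at 139.9, 139 and 222 FPKM in PGRN KO against 124 to 138 FPKM in WT. Of the 31-base words of these gene models, 24% for Atp6v1g1 and 18.4% for Atp6v1f occur in other genes, so that their counts are less certain. Without replicate 6 the log2 fold changes of Atp6v1g1 and Atp6v1f were both 0.09, with limma adjusted p of 0.263 and 0.251.

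**Figure D3:**
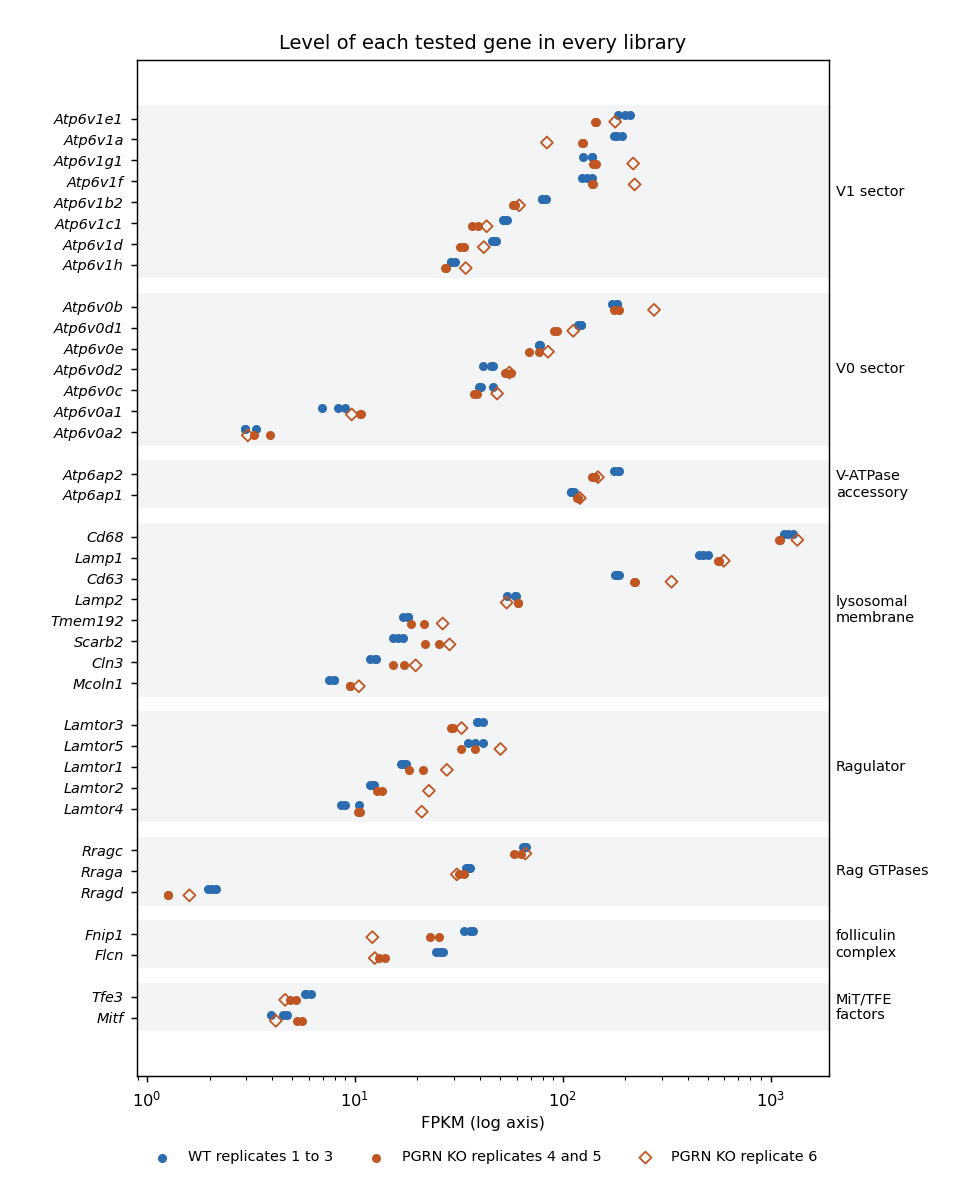
Level (FPKM, log axis) of each of the 37 tested genes in every library, grouped by complex and ordered by WT mean. Blue circles are WT libraries, filled orange circles PGRN KO replicates 4 and 5 and open diamonds PGRN KO replicate 6. Cd68 is the most abundant gene at 1103 to 1344 FPKM, and Rragd the least at 1.26 to 2.16 FPKM.

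The V0 sector was examined next. Of its 9 genes 7 were tested, 1 rose (10.4% of all tested genes did), none fell and the median log2 fold change was 0.11. Atp6v0d2, the d2 form of the subunit that caps the rotor and is known from osteoclasts and other macrophage lineage cells, was at 46.1, 41.3 and 45.01 FPKM in WT and at 52.9, 56.4 and 55.4 FPKM in PGRN KO. All PGRN KO libraries were higher than all WT libraries, and replicate 6 lay between the others. By limma the change was 0.31 ± 0.09 (SE) on the log2 scale, and the adjusted p was 0.0407. It was called in 10 of 18 alternative settings, and over the fits that left out 1 library the adjusted p reached 0.164 (without WT replicate 2).

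Atp6v0d1, the d1 form present in most tissues, averaged 121 ± 2.30 FPKM in WT against 99.1 ± 11.6 FPKM in PGRN KO (SD over 3 libraries each), with a limma adjusted p of 0.0931 that became 0.0024 without replicate 6. The d2 form thus made up 27.5%, 25.3% and 27.6% of the summed FPKM of both d forms in WT and 36.8%, 37.4% and 33.0% in PGRN KO. The share was 26.8% ± 1.29 in WT against 35.8% ± 2.39 in PGRN KO (SD, n = 3 each), a difference of 8.95 percentage points. An exact two-sided permutation test gave p = 0.1, which is the smallest that 3 against 3 libraries allow. The d2 form was the less abundant form in every library.

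The a subunit, which forms the proton path with the rotor, exists in forms that direct the pump to different membranes. Atp6v0a1 averaged 8.07 ± 1.00 FPKM in WT against 10.3 ± 0.565 FPKM in PGRN KO with a limma adjusted p of 0.0712, which was 0.0304 without replicate 6. Atp6v0a2 ranged from 2.96 to 3.33 FPKM in WT and from 3.05 to 3.89 FPKM in PGRN KO, and Atp6v0a4 was listed at 0 in every library. The a3 form, which carries the pump to lysosomes and to the osteoclast border, is encoded by Tcirg1 and so lies outside the symbol rule. It was at 187, 203 and 181 FPKM in WT and at 257, 229 and 314 FPKM in PGRN KO (limma, change of 0.47 ± 0.13 in log2, adjusted p = 0.0432), with no overlap between groups. Tcirg1 made up 94.4% ± 0.848 of the summed FPKM of the a forms in WT and 95.01% ± 1.05 in PGRN KO (exact two-sided permutation p = 0.6, n = 3 each).

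Of the remaining V0 genes, Atp6v0b, which encodes the c″ subunit of the rotor, was at 186 and 176 FPKM in replicates 4 and 5 of PGRN KO and at 275 FPKM in replicate 6, against 172 to 183 FPKM in WT. Atp6v0c, the c subunit, was at 42.1 ± 3.51 and 41.4 ± 6.04 FPKM, and 11.9% of its 31-base words occur in other genes, its pseudogenes Atp6v0c-ps1 and Atp6v0c-ps2 among them. Atp6v0e, a small membrane subunit, was at 77.3 ± 0.270 and 76.8 ± 8.09 FPKM. Neither the c subunit nor the e subunit passed the test in any alternative setting. Atp6v0e made up over 99.9% of the e forms, and Atp6v1b2, Atp6v1c1, Atp6v1e1 and Atp6v1g1 likewise made up at least 99.8% of the FPKM of their families in every library.

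Of the accessory proteins 2 of 3 were tested and 1 fell (13.8% of all tested genes did). Atp6ap2, the (pro)renin receptor, which is needed for assembly of the pump, was at 185, 187 and 177 FPKM in WT and at 139, 143 and 148 FPKM in PGRN KO. The spread within each genotype was small beside the gap between them, and replicate 6 was close to the other PGRN KO libraries. It fell by 0.35 on the log2 scale (SE 0.08, limma adjusted p = 0.0259), and without WT replicate 1 the adjusted p was 0.135. Atp6ap1, its partner in the assembled pump, averaged 111 ± 2.43 FPKM in WT against 119 ± 1.98 FPKM in PGRN KO (SD over 3 libraries each) and did not pass the test (limma, change of 0.10 in log2, adjusted p = 0.391). Atp6ap1l, an Atp6ap1-like gene, was at 0 in every library.

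Of the 8 lysosomal membrane genes, all tested, 3 rose and none fell (10.4% and 13.8% of all tested genes), and the median log2 fold change was 0.30. Scarb2, which encodes LIMP-2, the receptor that brings β-glucocerebrosidase to lysosomes, had the largest increase of the module. It was at 16.1, 17.02 and 15.2 FPKM in WT and at 25.3, 21.8 and 28.5 FPKM in PGRN KO. The lowest PGRN KO library was thus above the highest WT library, and replicate 6 was the highest of all. On the log2 scale it rose by 0.61 ± 0.12 (SE, limma adjusted p = 0.0123). The change was 0.52 without replicate 6, and it passed the threshold in 16 of 18 alternative settings.

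Cln3, a lysosomal membrane protein mutated in juvenile Batten disease, was at 11.8, 12.6 and 12.5 FPKM in WT and at 17.3, 15.3 and 19.6 FPKM in PGRN KO. All PGRN KO libraries were higher than WT, with a log2 fold change of 0.46 ± 0.11 and a limma adjusted p of 0.0235, although 7.6% of its exon bases overlap Apobr on the opposite strand, from which reads cannot be told apart where strand is not used. Mcoln1, the calcium channel of the lysosome (TRPML1), was at 7.95, 7.90 and 7.47 FPKM in WT and at 9.49, 9.49 and 10.4 FPKM in PGRN KO. The groups were apart by more than their spread, and the log2 fold change was 0.30 ± 0.08 with a limma adjusted p of 0.0418. Cln3 was called in 13 and Mcoln1 in 11 of 18 alternative settings, and without WT replicate 3 the adjusted p of Mcoln1 was 0.149.

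Lamp1 and Cd63 also separated the genotypes without passing the threshold. Lamp1 averaged 475 ± 22.1 FPKM in WT against 573 ± 19.4 FPKM in PGRN KO (SD over 3 libraries each). Its limma adjusted p of 0.0798 was 0.0197 without replicate 6, 0.0150 to 0.0357 under the 3 other scalings and 0.259 without WT replicate 1. Of its exon bases 9.3% overlap Grtp1 on the opposite strand. Cd63, a tetraspanin of late endosomes and lysosomes, was at 178, 187 and 183 FPKM in WT and at 220.3, 222 and 334 FPKM in PGRN KO. Its limma adjusted p of 0.0858 was 0.0068 without replicate 6 and 0.227 without WT replicate 1. Of the words of the Cd63 model 15.9% are shared with other genes, Cd63-ps among them. Tmem192, a membrane protein often used as a lysosome tag, was at 17.7 ± 0.554 and 22.2 ± 3.94 FPKM (limma adjusted p = 0.138). Lamp2, which takes part in autophagy, was at 57.5 ± 3.0 and 58.5 ± 4.16 FPKM, and Cd68, the macrophage form of such glycoproteins, was at 1219.5 ± 62.8 and 1185 ± 138 FPKM, the groups overlapping for both.

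**Figure D4:**
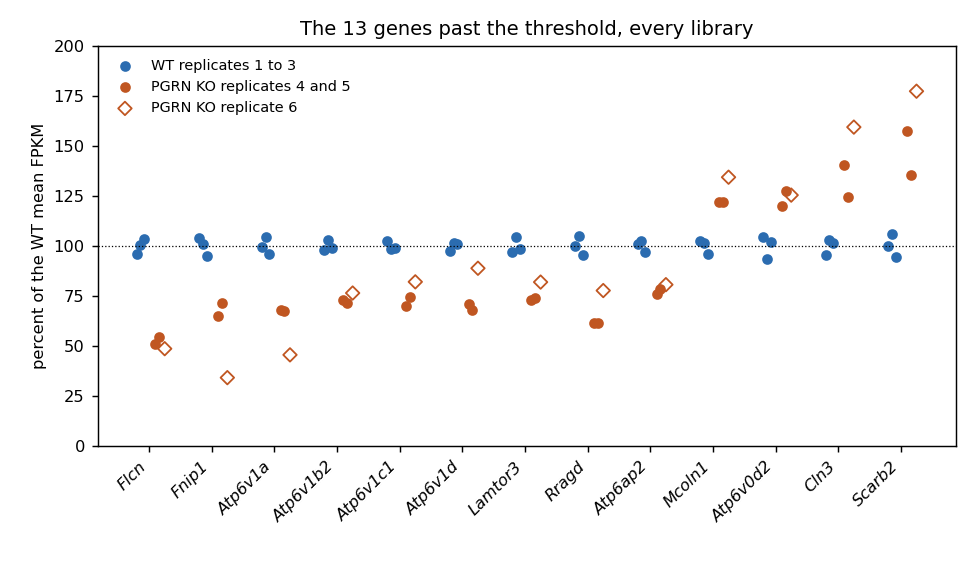
Level of the 13 genes past the threshold in every library, as percent of the WT mean FPKM of the gene, ordered by log2 fold change. Blue circles are WT, filled orange circles PGRN KO replicates 4 and 5 and open diamonds replicate 6. No PGRN KO point of the 9 lower genes reaches a WT point, Flcn is at about the same level in all 3 PGRN KO libraries, and replicate 6 lies far below the other PGRN KO libraries for Fnip1 and Atp6v1a.

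Both tested genes of the folliculin complex fell. With all 6 libraries theirs were the largest decreases of the module, whereas without PGRN KO replicate 6 Atp6v1a (-0.56) fell more than Fnip1 (-0.53). Flcn (chromosome 11, 59791408 to 59810016, minus strand, GRCm38) was at 24.6, 25.7 and 26.5 FPKM in WT and at 13.1, 13.9 and 12.5 FPKM in PGRN KO. The PGRN KO libraries were close to each other at a mean of 51.4% of WT. The log2 fold change was -0.91 ± 0.08 (95% interval -1.11 to -0.71) with a limma adjusted p of 0.0014. Flcn was the only gene of the module that was called in all 18 alternative settings, and leaving out any 1 library gave log2 fold changes of -0.95 to -0.87.

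Fnip1, the folliculin-interacting protein, was at 36.9, 35.8 and 33.7 FPKM in WT and at 23.1, 25.3 and 12.1 FPKM in PGRN KO. All PGRN KO libraries were lower than WT, and replicate 6 was far below the other PGRN KO libraries. The log2 fold change of -0.85 ± 0.25 therefore carried the widest error of the called genes, with a limma adjusted p of 0.0492. It was -0.53 with an adjusted p of 0.0023 without replicate 6, and the call was kept in 7 of 18 alternative settings. Fnip2, the paralog of Fnip1 and no member of the module, was at 59.0, 57.9 and 54.8 FPKM in WT and at 28.8, 30.2 and 16.8 FPKM in PGRN KO (limma, change of -1.19 ± 0.21 in log2, adjusted p = 0.0099), and it too was lowest in replicate 6.

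Of the 5 Ragulator genes 1 fell and none rose (13.8% and 10.4% of all tested genes). Lamtor3 (MP1) fell, from 38.6, 41.5 and 39.2 FPKM in WT to 29.1, 29.5 and 32.6 FPKM in PGRN KO. The groups did not overlap and the log2 fold change was -0.38 ± 0.09 (limma adjusted p = 0.0226, and 0.104 without WT replicate 2). The 4 other genes were not called, and their log2 fold changes were 0.05 to 0.47. Lamtor4 was at 8.54, 8.98 and 10.4 FPKM in WT and at 10.6, 10.3 and 20.98 FPKM in PGRN KO. Lamtor2 was likewise near the WT range of 11.8 to 12.3 FPKM in replicates 4 and 5, at 12.8 and 13.4 FPKM, and at 22.7 FPKM in replicate 6.

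Lamtor1 (p18), the lipid-anchored subunit that holds the complex to the membrane, averaged 17.1 ± 0.498 FPKM in WT against 22.4 ± 4.83 FPKM in PGRN KO with a limma adjusted p of 0.128. Its exons overlap Lrrc51 on the opposite strand over 18.7% of their bases, so that its count is uncertain. Lamtor5 was at 38.1 ± 3.18 and 40.1 ± 9.13 FPKM, with overlapping groups. The models of Lamtor2, Lamtor4 and Lamtor5 are 1218, 1302 and 884 bases long, and without replicate 6 the log2 fold changes of the 4 uncalled Ragulator genes were -0.12 to 0.19.

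The Rag GTPases work as pairs of RagA or RagB with RagC or RagD. Rraga was at 35.8, 35.5 and 34.4 FPKM in WT and at 31.7, 33.6 and 30.9 FPKM in PGRN KO, and it did not pass the test (limma, change of -0.13 in log2, adjusted p = 0.263) although the groups did not overlap. Rragc was at 65.7 ± 1.16 and 62.5 ± 3.91 FPKM with overlapping groups. Rragd was the low member of its pair, at 2.06, 2.16 and 1.96 FPKM in WT and at 1.26, 1.27 and 1.60 FPKM in PGRN KO, from 113 to 183 fragments per library. It fell by 0.37 on the log2 scale (SE 0.10, limma adjusted p = 0.0373, and 0.131 without WT replicate 2). Its share of the summed FPKM of both genes was 3.04% ± 0.0885 in WT against 2.15% ± 0.200 in PGRN KO (SD, n = 3 each, exact two-sided permutation p = 0.1, the smallest possible). Rragb was outside the list and did not exceed 0.0234 FPKM.

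Among the MiT/TFE factors none passed the threshold. Tfe3 was at 5.76, 5.85 and 6.13 FPKM in WT and at 4.86, 5.20 and 4.62 FPKM in PGRN KO. Every PGRN KO library was below every WT library, with a log2 fold change of -0.23 ± 0.08 and a limma adjusted p of 0.0894 (0.0481 without replicate 6). Mitf was at 4.50, 4.71 and 3.94 FPKM in WT and at 5.57, 5.24 and 4.16 FPKM in PGRN KO, with groups that overlapped through replicate 6, a log2 fold change of 0.15 ± 0.12 and an adjusted p of 0.391. Mitf is also a factor of mast cells, whose markers were low and did not all go the same way. Tpsb2 and Cma1 were called as higher in PGRN KO. Cpa3, Mcpt4 and Fcer1a, below the filter, were also higher in every PGRN KO library than in every WT library. Cpa3 was at 0.329 to 0.401 FPKM in WT and at 1.26 to 1.41 FPKM in PGRN KO. Mcpt4 was at 0 to 0.122 and 0.208 to 0.522 FPKM, and Fcer1a at 0 to 0.0677 and 0.106 to 0.405 FPKM. Kit, below the filter, was at 0.423, 0.395 and 0.218 FPKM in WT and at 0.343, 0.130 and 0.156 FPKM in PGRN KO, with overlapping groups. Gata2 overlapped between genotypes, and Ms4a2 was at 0 in every library. The part of mast cells in the level of Mitf was not tested.

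Tfeb was below the filter, at 0.727, 0.549 and 0.635 FPKM in WT and at 0.489, 0.391 and 0.623 FPKM in PGRN KO, which came from 42 to 69 fragments per library. The groups overlapped, and with no filter its log2 fold change was -0.13 ± 0.10 (limma adjusted p = 0.563). Tfec, the form restricted to macrophages and a few other cells, was at 1.37, 1.64 and 1.199 FPKM in WT and at 1.91, 1.97 and 1.91 FPKM in PGRN KO (limma, change of 0.29 ± 0.10 in log2, adjusted p = 0.0793). Tfe3 and Mitf thus made up most of the family transcript in both genotypes. The share of Tfe3 was 48.0% ± 3.07 in WT and 39.8% ± 1.64 in PGRN KO, that of Tfec 11.3% ± 1.43 and 15.7% ± 1.05 (SD, n = 3 each, exact two-sided permutation p = 0.1 for both, the smallest possible). The share of Mitf was 35.5% ± 2.11 and 40.4% ± 3.35 (exact p = 0.2, n = 3 each). FPKM measures transcripts and not where in the cell these factors lie.

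**Figure D5:**
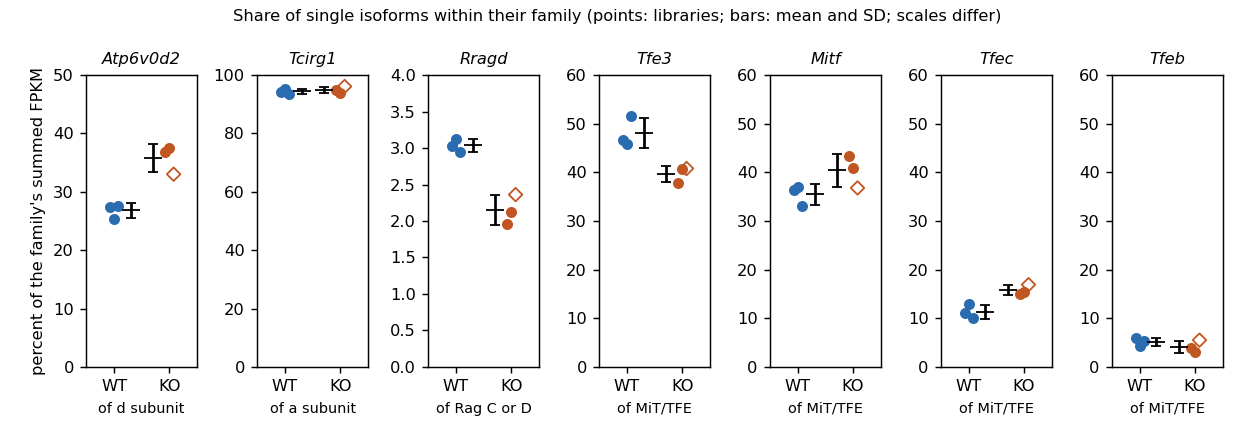
Share of single genes in the summed FPKM of their subunit or factor family (percent, scales differ between panels) in WT and PGRN KO libraries. Points are libraries, the open diamond is PGRN KO replicate 6 and bars give mean and SD (n = 3). The d2 form rises from 26.8% to 35.8% of the d subunit, whereas Tcirg1 stays near 95% of the a subunit.

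The remaining members were hardly detected. Atp6v1g2 did not exceed 0.323 FPKM, Atp6v1fnb 0.297 FPKM, Atp6v1e2 0.0595 FPKM, Atp6v1c2 0.0275 FPKM and Atp6v0e2 0.0243 FPKM. Atp6v1b1, Atp6v1g3, Atp6v0a4 and Atp6ap1l were at 0 in all libraries. Most of these are forms of the pump known from kidney, testis, brain or other specialised tissues. Atp6v1fnb, a neighbour of Atp6v1f, shares the letters of the rule and is not itself a subunit.

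Genes with the promoter motif were called in both directions. Of the 11 tested genes with CACGTG, 2 rose (Cln3 and Mcoln1), 2 fell (Atp6v1a and Fnip1) and 7 were not called. Of the 19 with a window and no CACGTG, 1 rose, 4 fell and 14 were not called. Of all tested genes, 10.4% rose and 13.8% fell. Tested genes without a window are in neither set, the called Atp6v0d2, Atp6v1b2, Atp6v1c1 and Lamtor3 among them. The median log2 fold change was 0.22 with the motif and 0.02 without it, and both sets ran from about the strongest decreases of the module, -0.85 and -0.91, to increases of 0.47 and 0.61. The stretches of Atp6v1a and Cln3 shown above each hold TCACGTGA, and their genes were called in opposite directions.

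To place the module beside its neighbours, related lists of genes were examined in the same fit, in which 24.2% of all tested genes were called, 10.4% as higher and 13.8% as lower. Of 10 tested genes for assembly and regulation of the pump, 1 rose and 2 fell. Ncoa7, a TLDc protein that binds the V1 sector, rose by 0.75 ± 0.12, Wdr7, a partner of the pump in rabconnectin, fell by 0.79 ± 0.21, and Ccdc115, an assembly factor, fell by 0.58 ± 0.11 on the log2 scale (limma adjusted p = 0.0066, 0.0378 and 0.0136). Of 28 tested further genes of the lysosomal membrane, 3 rose and 7 fell (35.7%, against 24.2%), and their median was -0.19. Ctns, the cystine exporter, Npc1, the cholesterol exporter, and Spns1, a lysophospholipid exporter, fell by 0.65, 0.65 and 0.57 (adjusted p = 0.0054, 0.0394 and 0.0232), whereas Laptm4a rose by 0.56 (adjusted p = 0.0152).

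Of 18 tested genes for amino acid sensing and mTORC1, none rose and 2 fell, Fnip2 and Sesn2, a leucine sensor (limma, change of -0.43 in log2, adjusted p = 0.0109). Of 10 tested genes that position lysosomes along microtubules, none rose and 3 fell. Arl8b and Arl8a, small GTPases on the lysosome, and Plekhm1, which ties lysosomes to fusion partners, fell by 0.67, 0.44 and 0.47 (adjusted p = 0.0044, 0.0278 and 0.0124). Among 38 tested lysosomal hydrolases and their cofactors, 16 rose and 4 fell (52.6%, against 24.2% of all tested genes), with a median of 0.36, while the pump genes of the V0 and V1 sectors and the accessory proteins counted 1 that rose and 5 that fell among 17, with a median of -0.01. No test of the difference between these lists was made.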

How the data were processed

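Peritoneal macrophages, per the labels, were sequenced with the NEBNext Ultra RNA kit in 6 libraries. The authors deposited FPKM per gene and library. The submitters' processing notes name CASAVA, HISAT2 2.0.5, featureCounts 1.5.0-p3, DESeq2 1.20.0 and the builds mm10 and GRCm38, whereas the methods of the study name other versions and HTSeq for counting. The sources used here do not say whether strand entered the counting, so reads of overlapping genes on opposite strands may be shared. FPKM times gene length gave whole fragments for 100% of values in each library (tolerance 0.001 of a step). The library size the authors divided by was 0.925 to 1.09 times the sum of these fragments. By library this ratio was 0.974, 0.925 and 1.03 in WT and 1.05, 1.09 and 1.00 in PGRN KO.

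Genotypes were compared on log2(FPKM + 1) with limma 3.58.1 in R 4.3.3 (two-sided, without covariates, empirical Bayes with a trend of variance on mean) for the 8882 genes with a mean of at least 1 FPKM, with Benjamini-Hochberg adjustment over all of them and a threshold of 0.05. The count model of the study was not used, since the values are FPKM, and limma voom on the recovered fragments was an alternative. The script was tested on simulated data. Shares within families were compared with an exact two-sided permutation test. Alternatives were pseudocounts of 0.1 and 0.01, no filter, at least 5 FPKM, 3 other scalings, no variance trend, library weights, voom, a loess correction for gene length (span 0.5) with and without PGRN KO replicate 6, and leaving out each library.

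The members, the related lists, the marker lists and the tests were chosen with earlier results of these data known. The result of 1 marker gene is not reported here. Library values, log2 fold change, SE and adjusted p were given for every member past the threshold and for the MiT/TFE factors, other members were given by group values, and up to 4 called genes were named per related list. GENCODE for GRCm38 held 99.93% of the gene identifiers, including those of all 47 members. Promoter windows came from RefSeq, and 7 tested members had none in that table (Atp6v0a2, Atp6v0d2, Atp6v1b2, Atp6v1c1, Atp6v1g1, Atp6v1h and Lamtor3). Single fragments are not independent molecules, and fragment numbers limit counting error only.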

Additional observations from a re-analysis of the deposited data

How the results depend on the processing

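No paired analysis was possible because no replicate number occurs in both genotypes. With no filter on low values 1 gene of the module was higher and 5 were lower past the threshold. These were 6 of 43 module genes in that fit, against 5.96% of all 22912 genes called in either direction. On a TPM scale 4 were lower (21.6% called in either direction, against 17.2% of all tested genes). With libraries scaled to their own fragment totals 3 were lower (24.3% called in either direction, against 21.1%) and the median log2 fold change was 0.122. With sample quality weights 8 were higher and the median was -0.09, the weight of PGRN KO replicate 6 being 0.0899. In that fit 54.1% of the module was called in either direction, against 47.6% of all tested genes. With the length correction and without that replicate 8 were higher (51.4% called in either direction, against 40.9%). Over the fits that each left out 1 library, 0 to 7 genes were higher, 1 to 12 were lower and the median was -0.089 to 0.062. The share of all tested genes called in these fits ran from 8.03% to 41.3%. Leaving out any WT library reduced the calls, and leaving out PGRN KO replicate 6 raised them. The other counts stayed within 1.5 times the reported ones and the other medians within 1 SD between replicates (0.0737). Of the values of the 13 called genes under the alternatives, 151 stayed past the threshold and 82 did not, and none changed sign.

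Of the 24 uncalled genes, 7 with small differences changed sign under some settings, and the cause was not tested. On a TPM scale Atp6v0c was at 0.023, Atp6v0e at 0.04, Atp6v1h at 0.049 and Cd68 at 0.009 in log2. With libraries scaled to their fragment totals the same genes were at 0.067, 0.084, 0.093 and 0.054, and Rragc at 0.026. With quantile normalization the first 4 were at 0.016, 0.013, 0.051 and 0.01. Lamtor5 was at -0.122 with quality weights, -0.037 with the length correction and -0.077 with that correction and without PGRN KO replicate 6. Atp6v1h was at 0.161 with the length correction. Over the fits that left out 1 library, Atp6v0c ran from -0.144 to 0.038, Atp6v0e from -0.089 to 0.062, Atp6v1h from -0.108 to 0.051, Cd68 from -0.139 to 0.003, Lamp2 from -0.02 to 0.083 and Lamtor5 from -0.12 to 0.189.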
